A study of Mus musculus with 12 samples.

Results

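The nuclear genes of oxidative phosphorylation were followed in newborn (P0) and 7-day-old (P7) mouse ovaries with and without Lhx8, a LIM homeobox transcription factor of oocytes. Members were all probes whose gene symbol begins with Nduf, Uqcr or Atp5, is Sdha, Sdhb, Sdhc or Sdhd, or begins with Cox followed by a digit from 4 to 8. The rule found 135 probes, of which 1 for a pseudogene was left out, and the remaining 134 probes (of 45281 on the array) stood for 86 of the 19057 genes with a named probe. The rule uses gene symbols alone, but it was set with earlier results of these data known. By protein they fell into 34 genes of complex I, 4 of complex II, 7 of complex III, 17 of complex IV, 16 of complex V and 8 assembly factors of complex I that share the Nduf prefix, and the assembly factors were counted apart. Ndufa4 was counted with complex IV, where its protein resides.

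The 4 groups were Lhx8 wild-type and Lhx8 knockout animals at P0 and at P7, with 3 animals each and 1 array per animal. All 12 animals shared a mixed background of 129, C57BL/6 and SF1. The labels name the tissue as oocytes, while the protocols describe whole gonads, so each array holds RNA of oocytes and of every somatic cell of the ovary together. Values are scores: before deposit the probes of every array had been centred on 0 and divided by their SD, and the arrays were quantile-normalized here. Differences are therefore in z units and are no fold changes, and errors are the SE of a limma fit with n = 3 per group unless marked SD. A gene is called higher or lower where its adjusted p in that fit was below 0.05 over all 12210 genes tested.

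Oxidative phosphorylation couples the transfer of electrons along the inner mitochondrial membrane to the making of ATP. Complexes I and II take electrons from NADH and succinate, complex III passes them to cytochrome c, complex IV hands them to oxygen, and the ATP synthase, complex V, uses the proton gradient that complexes I, III and IV build. Most subunits are encoded in the nucleus and a few in mitochondrial DNA, and several complex IV subunits come in isoforms that differ between tissues. Oocytes carry a very large stock of mitochondria, which the embryo inherits.

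Of the 86 genes, 80 had a probe above background on at least 3 of the 12 arrays and were tested. These were 33 genes of complex I, 3 of complex II, 6 of complex III, 15 of complex IV, all 16 of complex V and 7 assembly factors. The 6 genes not tested were Ndufs1 and Sdha, which carry redox centres of complexes I and II, Uqcrfs1, the Rieske iron-sulfur protein of complex III, the muscle and testis isoforms Cox6a2 and Cox7b2, and Ndufaf6. Their probes were above background on 0 to 2 arrays, so nothing is known here of their transcripts. None of the 13 subunit genes of mitochondrial DNA was found among the named probes, so the text is on nuclear genes only. Of the tested members 51 had a mean score of at least 2, and they belong to the bright end of the array, where between-array scaling weighs most.

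Lhx8 itself was lower on all 6 knockout arrays than on any wild-type array of its age, by −1.05 at P0 and −1.21 at P7. All 7 oocyte markers examined were lower in the knockout at both ages. Their summed score ran from 19.7 to 26.32 on wild-type and from 0.61 to 3.66 on knockout arrays at P0, and from 32.63 to 34.4 against 4.02 to 5.81 at P7. Of 5 granulosa cell markers none was called at P0 and 4 were lower at P7. Arrays of 1 group correlated with r between 0.974 and 0.993. In RNA of whole ovaries, fewer cells of a type and less RNA per cell cannot be told apart, and this holds for every difference below.

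The P0 comparison asks which transcripts differed at birth. Of the 80 genes tested, 27 were lower in the newborn knockout ovary, none was higher and 53 were not called (limma). The lower genes belonged to complexes I, III, IV and V and to the assembly factors, and the 3 tested genes of complex II gave no call. Over all genes tested 11.4% were lower and 10.0% higher. The median difference of the members was −0.25, against 0.01 over all genes, and 66 of the 80 lay below 0. The knockout arrays did not overlap the wild-type arrays for 41 members below and 3 above, while over all genes 16.7% lay wholly below and 16.4% wholly above. The members are bright genes, so other bright genes were counted beside them. Of 1776 other genes with a mean score of at least 2, 11.9% were lower and 15.3% higher, whereas of the 51 bright members 18 (35.3%) were lower and none higher. The oocyte markers fell in the same arrays, as given above, and their part in the members' fall was not tested.

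**Figure D1:**
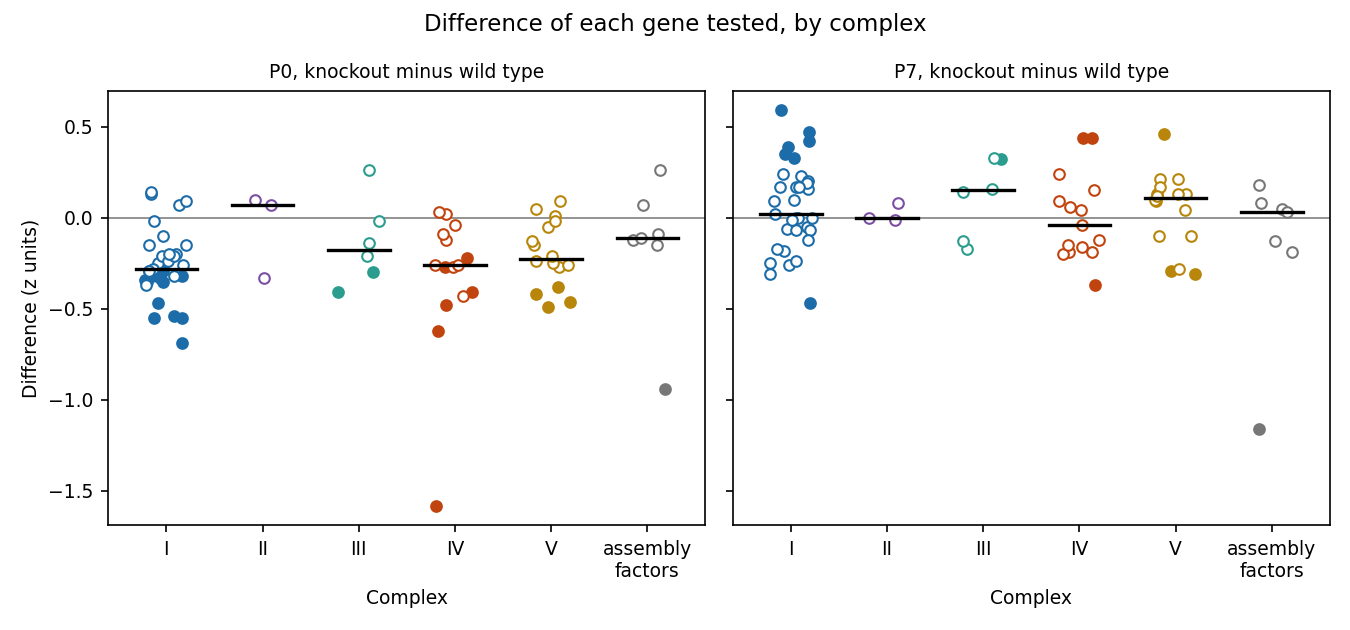
Difference between knockout and wild type in z units (vertical axis) of each of the 80 genes tested, by complex (horizontal axis), at P0 (left) and P7 (right). Filled points are genes called by limma, open points are not called, and black lines are medians, which lie at −0.28 for complex I and −0.26 for complex IV at P0 and at 0.02 and −0.04 at P7.

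Complex I, NADH dehydrogenase, held the largest number of lower genes at P0, 14 of 33 with a median of −0.28. They were spread over both arms, with 6 of 14 genes of the peripheral arm and 8 of 18 of the membrane arm. Ndufc2, an accessory subunit of the membrane arm, scored 3.73, 3.58 and 3.79 on the wild-type arrays and 2.99, 3.07 and 2.98 on the knockout arrays. The groups were far apart for their spread, with a difference of −0.69 ± 0.09 (limma adjusted p = 9.5e-05). Ndufs8, a core subunit that carries iron-sulfur clusters on the way to ubiquinone, stood at 2.78, 2.83 and 2.71 in wild type and at 2.36, 2.14 and 2.19 in the knockout. This is a difference of −0.55 ± 0.09 (adjusted p = 0.00103), again with no overlap.

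Ndufb6 and Ndufc1, accessory subunits of the membrane arm, differed by −0.55 ± 0.10 (limma adjusted p = 0.00174) and −0.54 ± 0.11 (adjusted p = 0.00379). The other lower genes of complex I were Ndufb9, Ndufs6, Ndufa1, Ndufa11, Ndufa5, Ndufb10, Ndufs7, Ndufa2, Ndufv2 and Ndufb3, between −0.47 and −0.27. Among them, Ndufs7 and Ndufv2 are core subunits that hold iron-sulfur clusters. Of the other core subunits Ndufv1, which binds NADH, differed by −0.29 (adjusted p = 0.063) and Ndufs3 by −0.26 (adjusted p = 0.106). Ndufb9 is the 1 called member whose arrays overlapped, with 1.11, 0.41 and 0.97 in wild type and 0.45, 0.25 and 0.37 in the knockout. Ndufa1, Ndufa5 and Ndufb10 lost the call when probes were averaged, and Ndufb10 then stood at 0.06. No gene of complex I was called higher, and the highest value was 0.14 for Ndufb5 (adjusted p = 0.372).

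Complex II, succinate dehydrogenase, gave no call among its 3 tested genes. The membrane anchors Sdhc and Sdhd differed by 0.07 (limma adjusted p = 0.662) and 0.10 (adjusted p = 0.688), and the iron-sulfur subunit Sdhb by −0.33 (adjusted p = 0.0852). The probes of Sdhb disagreed. In the fit on single probes a further probe of similar brightness differed by −0.38 (adjusted p = 0.0486), and a dim one by 0.34 (adjusted p = 0.0125).

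In complex III 2 of 6 genes were lower. Uqcrc1, a core protein of the complex, scored 3.24, 3.33 and 3.32 in wild type and 2.93, 2.93 and 2.81 in the knockout, without overlap. The difference was −0.41 ± 0.10 (limma adjusted p = 0.00788). Uqcr11, a small accessory subunit, differed by −0.30 ± 0.10 (adjusted p = 0.0489), just past the threshold. Its partner Uqcrc2 differed by −0.14 (adjusted p = 0.389). Cyc1, the cytochrome c1 subunit, whose symbol the rule does not cover, was lower by −0.35 ± 0.11 (adjusted p = 0.0335), and the electron carrier Cycs stood at 0.21 (adjusted p = 0.144).

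Complex IV, cytochrome c oxidase, held the member that changed most. Cox8c, at chr12:102899306-102900534 (GRCm38.p6), encodes an isoform of the smallest subunit that is known mainly from testis. It scored 0.87, 1.17 and 1.39 on the wild-type P0 arrays and −0.64, −0.50 and −0.17 on the knockout arrays. On no knockout P0 array was its probe above background, so the difference of −1.58 ± 0.14 (limma adjusted p = 2.03e-06) amounts to at least −1.13 against the background level. By P7 the wild type stood at −0.19, 0.19 and −0.03 and the knockout at −0.18, −0.12 and −0.19, and the genotypes overlapped (−0.15, adjusted p = 0.437).

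A further testis-type isoform of complex IV fell with it. Cox6b2 scored 0.90, 1.04 and 0.94 in wild type and 0.49, 0.42 and 0.53 in the knockout at P0, a difference of −0.48 ± 0.10 (limma adjusted p = 0.0029), while its general counterpart Cox6b1 stood at 0.02 (adjusted p = 0.927). Of the subunits found in all tissues, Cox5a, which binds the matrix side of the enzyme, was lowest relative to wild type. It scored 3.76, 4.0 and 3.81 in wild type and 3.34, 3.12 and 3.25 in the knockout, a difference of −0.62 ± 0.11 (adjusted p = 0.00118).

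The remaining lower genes of complex IV were Cox6a1 (−0.41 ± 0.12), Cox7b (−0.27 ± 0.07) and Cox4i2 (−0.22 ± 0.07), an isoform linked to low oxygen. Cox7b and Cox4i2 lay close to background, and no knockout P0 array was above it for either, so the sizes of these differences are uncertain. For Cox7b the wild-type P0 mean also lay below the background level, so its direction is uncertain too. Cox4i1 differed by −0.12 (limma adjusted p = 0.447), Cox5b by −0.27 (adjusted p = 0.0533) and Ndufa4 by −0.26 (adjusted p = 0.053). Cox6c (0.03), Cox7a2 (−0.43) and Cox7a2l, which joins complexes III and IV into supercomplexes (−0.09), were not called, nor was the muscle isoform Cox7a1 (−0.26, adjusted p = 0.156).

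In complex V 4 of 16 genes were lower. Atp5o, part of the stalk that holds the catalytic head in place, scored 4.53, 4.63 and 4.39 in wild type and 4.06, 4.13 and 4.12 in the knockout, with no overlap (−0.42 ± 0.09, limma adjusted p = 0.00627). Atp5l and Atp5j2, small subunits of the membrane part, differed by −0.46 ± 0.09 (adjusted p = 0.00351) and −0.38 ± 0.12 (adjusted p = 0.034). Atp5e, the epsilon subunit of the central stalk, differed by −0.49 ± 0.13 (adjusted p = 0.0146). The alpha, beta and gamma subunits of the catalytic part gave no call: Atp5a1 stood at 0.05 (adjusted p = 0.738), Atp5b at 0.01 (adjusted p = 0.967) and Atp5c1 at 0.09 (adjusted p = 0.533). The proton-carrying c ring genes Atp5g2 (−0.27) and Atp5g3 (−0.05) were not called either.

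Among the 7 Nduf assembly factors, which build complex I but are not part of it, 1 was lower. Ndufaf4 scored 2.0, 2.13 and 2.11 in wild type and 1.03, 1.07 and 1.32 in the knockout (−0.94 ± 0.11, limma adjusted p = 4.95e-05). A dimmer probe of the same gene differed by 0.03 (adjusted p = 0.909), so the fall rests on 1 of its 2 probes. The other 6 factors lay between −0.15 and 0.26 and were not called.

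**Figure D2:**
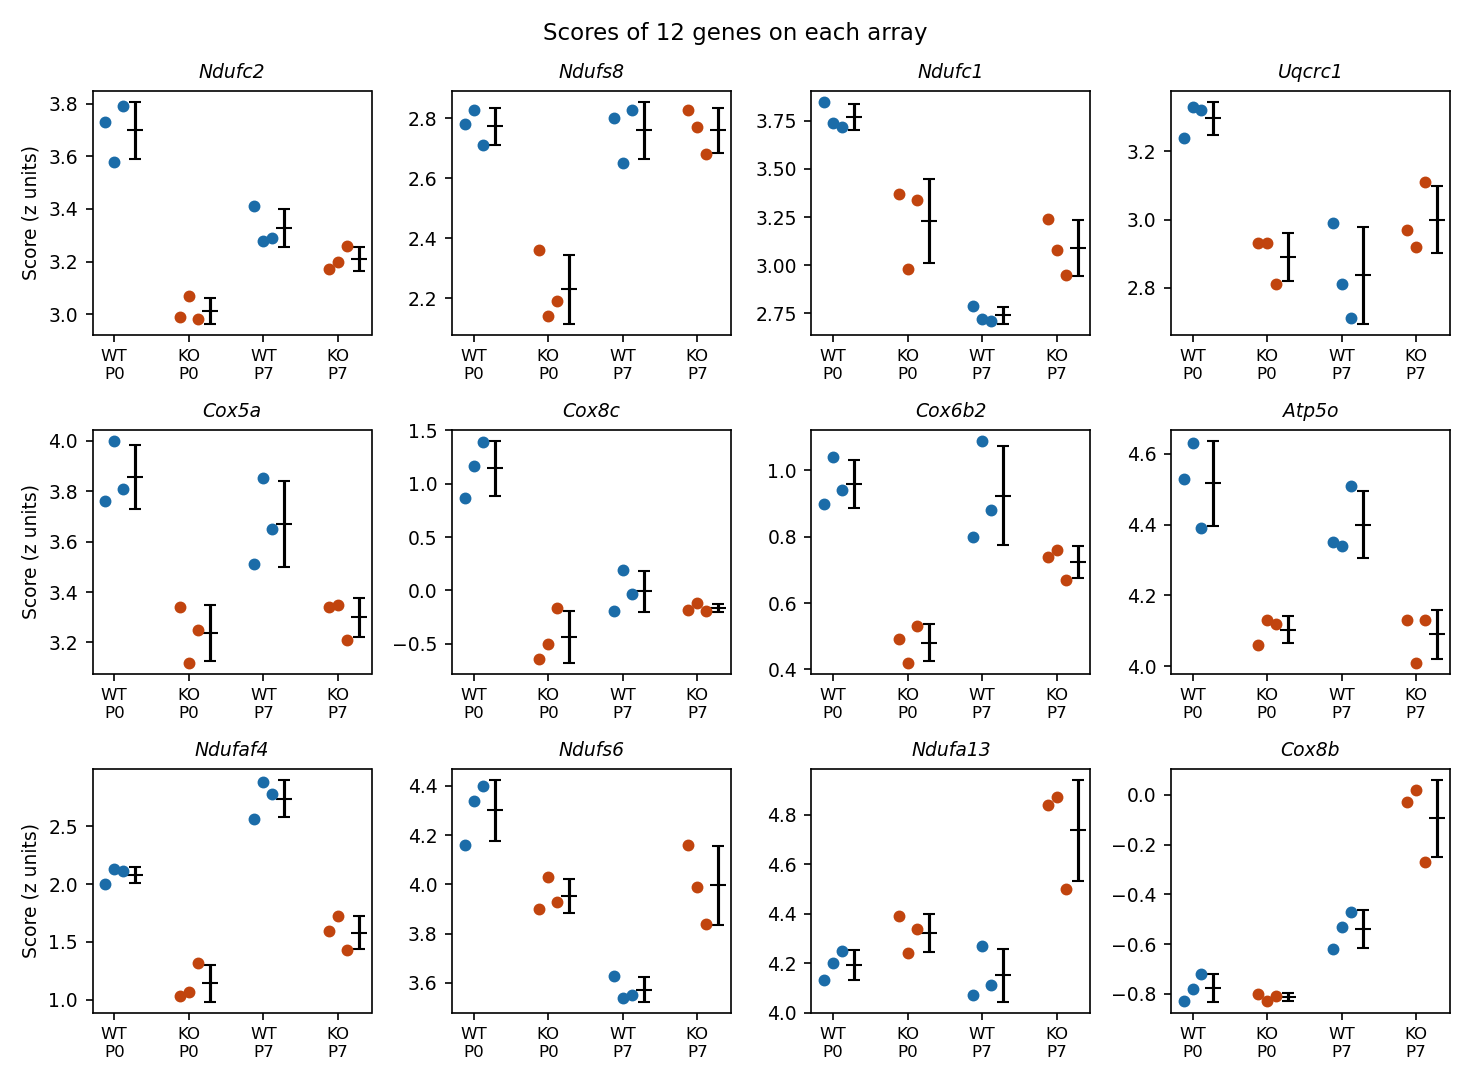
Score in z units (vertical axis) of 12 genes on each array, with wild type (WT, blue) and knockout (KO, orange) at P0 and P7 along the horizontal axis. Points are single arrays and bars the mean ± SD of 3, the vertical axes do not start at 0, and Cox8c at P0 runs from 0.87 to 1.39 in wild type and from −0.64 to −0.17 in the knockout.

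The fall at P0 rested on many small differences, and the number of calls moved with single arrays and with scaling. It was 12 without the third wild-type P0 array, 13 without the second knockout P0 array, 16 without the second wild-type P0 array and 16 when only the 6 P0 arrays were fitted. Under scaling by the median and the median absolute deviation it was 10, and the call of all but 5 genes was lost under at least 1 setting tried. The 5 kept under each setting that gave a value were Cox8c, Cox6b2, Ndufaf4, Ndufc2 and Ndufs8. The members' median stayed below that of all genes under each of these settings, at −0.28 relative to it under median scaling. Of the called genes over the whole array 46.8% were higher here, 30.8% on the deposited scores and 6.54% under median scaling. Of 9 called members with a further tested probe, 4 were called the same way by another probe and 0 the opposite way.

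The promoters of the lower genes are shown because nuclear respiratory factors are known to act through short motifs near the start of many respiratory chain genes. RefSeq (GRCm38.p6) gave 77 windows of 300 bases, from 250 before to 50 after the start, for 72 of the 86 genes. On both strands, the motif of nuclear respiratory factor 1, which begins and ends with GCGC, was found in 19 of them (24.7%), against 4.6% of all 32851 windows. The motif CCGGAAG of GA-binding protein was found in 18 (23.4% against 8.86%) and ATGGCGGC of YY1 in 8 (10.4% against 2.24%), 7 of these 8 in complex I. Of homeobox motifs, TAATTA was found in 0 (5.29% of all windows), TAATTG in 4 (5.19% against 8%) and TGATTG, known from LIM homeobox proteins, in 7 (9.09% against 14%). No matches of different motifs overlapped among the members.

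Windows of the genes lower at P0 held the nuclear respiratory factor 1 motif in 8 of 24 (33.3%), that of GA-binding protein in 6 (25%), that of YY1 in 2 (8.33%), and TAATTG and TGATTG in 1 each (4.17%). For tested members that were not called the counts of 50 were 10 (20%), 12 (24%), 6 (12%), 3 (6%) and 4 (8%). These shares were not tested against each other. A match says that the letters are present and not that a factor binds. The 4 genes called under each setting that have a window in the table, and a lower gene each of complexes III and V, are given 5′ to 3′ in the direction of the gene, with capitals where 1 of these motifs was found on either strand.
Ndufc2, chr7:97399753-97400052, plus strand: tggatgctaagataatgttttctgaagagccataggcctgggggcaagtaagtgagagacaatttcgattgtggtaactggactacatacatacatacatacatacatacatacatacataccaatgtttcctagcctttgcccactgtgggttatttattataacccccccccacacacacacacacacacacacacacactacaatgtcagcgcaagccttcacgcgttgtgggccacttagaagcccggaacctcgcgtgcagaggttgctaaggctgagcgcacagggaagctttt
Ndufs8, chr19:3912725-3913024, minus strand: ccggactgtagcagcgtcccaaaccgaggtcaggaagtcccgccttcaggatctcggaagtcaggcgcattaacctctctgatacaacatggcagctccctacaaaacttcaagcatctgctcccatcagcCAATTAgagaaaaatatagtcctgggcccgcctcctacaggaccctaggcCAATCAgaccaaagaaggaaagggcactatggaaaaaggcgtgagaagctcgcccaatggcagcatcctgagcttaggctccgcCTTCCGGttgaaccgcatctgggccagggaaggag
Ndufaf4, chr4:24897833-24898132, plus strand: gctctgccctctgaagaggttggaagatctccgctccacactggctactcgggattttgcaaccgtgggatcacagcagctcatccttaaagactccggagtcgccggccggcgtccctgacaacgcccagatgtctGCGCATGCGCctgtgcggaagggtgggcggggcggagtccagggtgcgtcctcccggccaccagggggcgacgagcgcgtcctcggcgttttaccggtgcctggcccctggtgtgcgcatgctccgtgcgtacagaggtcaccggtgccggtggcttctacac
Cox6b2, chr7:4753045-4753344, minus strand: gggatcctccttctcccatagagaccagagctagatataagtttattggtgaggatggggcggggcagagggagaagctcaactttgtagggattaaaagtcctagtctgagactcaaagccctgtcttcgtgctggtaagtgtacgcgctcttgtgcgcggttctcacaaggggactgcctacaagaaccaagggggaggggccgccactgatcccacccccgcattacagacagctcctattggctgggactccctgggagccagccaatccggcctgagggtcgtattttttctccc
Uqcrc1, chr9:108936398-108936697, plus strand: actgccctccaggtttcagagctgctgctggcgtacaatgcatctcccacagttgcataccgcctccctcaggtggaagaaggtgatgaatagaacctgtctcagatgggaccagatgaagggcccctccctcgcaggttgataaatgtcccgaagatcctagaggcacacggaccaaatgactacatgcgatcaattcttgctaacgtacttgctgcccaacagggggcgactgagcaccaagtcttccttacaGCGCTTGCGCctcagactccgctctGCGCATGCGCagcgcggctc
Atp5o, chr16:91931581-91931880, minus strand: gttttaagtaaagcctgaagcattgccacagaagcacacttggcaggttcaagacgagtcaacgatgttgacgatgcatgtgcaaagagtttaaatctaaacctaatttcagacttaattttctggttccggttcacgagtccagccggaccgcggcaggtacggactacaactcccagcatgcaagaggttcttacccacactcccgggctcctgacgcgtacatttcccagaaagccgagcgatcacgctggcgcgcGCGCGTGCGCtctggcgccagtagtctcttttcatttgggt
The windows of Ndufaf4, Uqcrc1 and Atp5o hold the nuclear respiratory factor 1 motif, in Uqcrc1 at 2 places. That of Ndufs8 holds the motif TAATTG, the LIM homeobox motif and the GA-binding protein motif, all on the strand opposite to the one printed, and those of Ndufc2 and Cox6b2 hold none of the 6.

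Lists of other mitochondrial and metabolic genes were counted at P0 in the same way, with no test between lists. Of 74 mitochondrial ribosomal proteins 16 (21.6%) were lower and 2 higher (median −0.13), among them Mrpl54 (−0.67), Mrps21 (−0.65) and Mrps27, which was not above background in the knockout (at least −0.30). Of 39 assembly factors of complexes I to V outside the rule 5 (12.8%) were lower and none higher, a share near the 11.4% of all genes, among them the copper chaperone Cox17 (−0.85 ± 0.11), Timmdc1 (−0.79) and Uqcc2 (−0.77), which serve complexes IV, I and III. Ogdh (−0.42) and Suclg2 (−0.40) were lower among 14 genes of the citric acid cycle (14.3%) and none was higher. Of 15 genes of the outer membrane and of protein import 4 (26.7%) were lower, with Vdac3 (−0.56) and the chaperone Hspd1 (−0.47) in front, and Vdac1 was higher (0.39). Of 48 cytosolic ribosomal proteins, also bright genes, 2 were lower and 2 higher (median 0.01). Tfb1m (−0.43), which methylates mitochondrial ribosomal RNA, was the 1 called gene of 13 regulators of mitochondrial biogenesis.

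Of 15 genes of glycolysis and glucose uptake 8 (53.3%) were higher at P0 and none lower, with a median of 0.38. Over all genes tested 10.0% were higher. Neither this list nor the others were followed under the other settings or with arrays left out. Higher genes made up 46.8% of all P0 calls here and 6.54% under median scaling. Pfkl, the liver-type phosphofructokinase, scored 1.94, 1.86 and 1.48 in wild type and 3.18, 2.66 and 3.13 in the knockout (1.23 ± 0.16, limma adjusted p = 9.5e-05). Tpi1, triosephosphate isomerase, scored 3.45, 3.20 and 3.03 against 4.46, 4.06 and 4.30 (1.05, adjusted p = 4.45e-05). Ldha, which turns pyruvate into lactate, scored 2.88, 2.46 and 2.35 against 3.64, 2.85 and 3.52 (0.77, adjusted p = 0.00788) and overlapped between the groups. For all 3 genes the second knockout array was the lowest of its group.

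The P7 comparison asks what differed a week later. The broad fall was no longer seen, and a smaller set of subunits was higher in the knockout. Of 80 members 10 were higher and 5 lower, where over all genes tested 17.6% were higher and 15.4% lower, so both shares lay below those of the array as a whole. The median was 0.05, against 0.04 over all genes. Knockout arrays lay wholly above wild type for 17 members and wholly below for 15, against 30.2% and 23.1% of all genes.

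**Figure D3:**
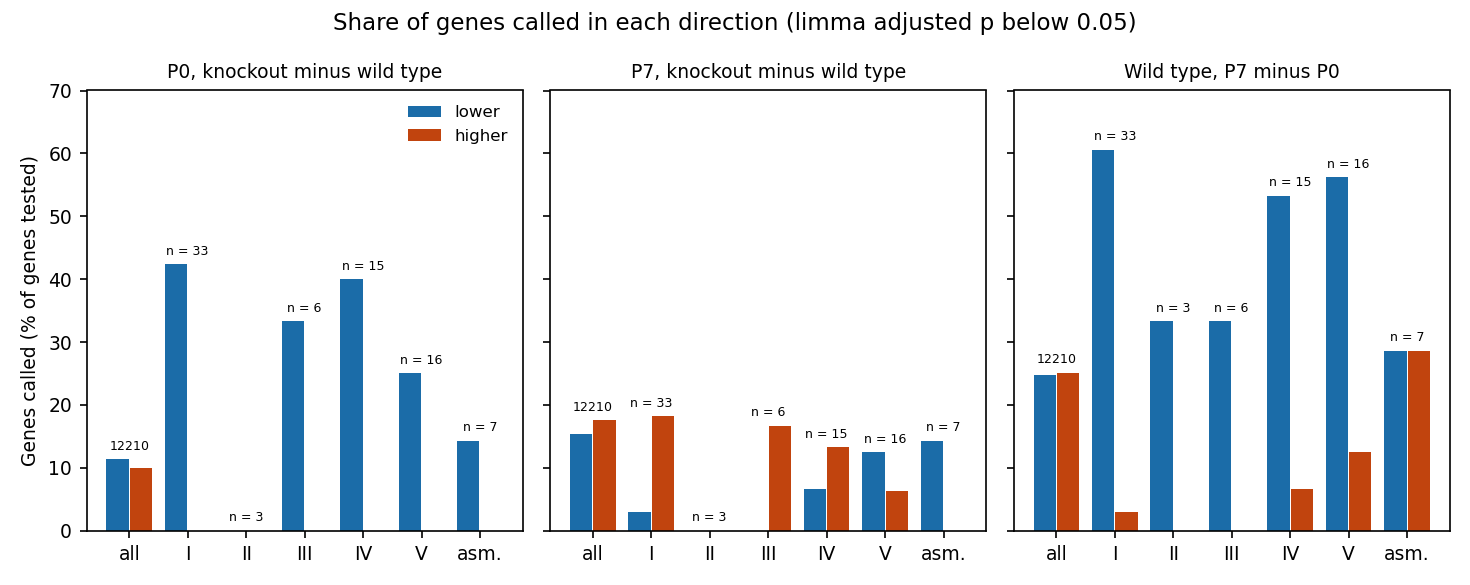
Share of tested genes called higher (orange) or lower (blue) in percent (vertical axis), for all genes and for each complex (horizontal axis, asm. for the assembly factors), in 3 comparisons, with the number of genes tested above the bars. At P0 complex I reaches 42.4% lower against 11.4% of all genes, and in wild type between the ages 60.6% against 24.8%.

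Complex I held 6 of the 10 higher genes, which is 18.2% of its 33 tested genes and near the 17.6% of all genes. Ndufa13, an accessory subunit also known as GRIM-19, scored 4.07, 4.27 and 4.11 in wild type and 4.84, 4.87 and 4.50 in the knockout (0.59 ± 0.11, limma adjusted p = 0.000709). Ndufv3 and Ndufs6, accessory subunits near the NADH site and the peripheral arm, differed by 0.47 ± 0.13 (adjusted p = 0.00972) and 0.42 ± 0.10 (adjusted p = 0.00469). Ndufa3, Ndufc1 and Ndufb10 of the membrane arm differed by 0.39, 0.35 and 0.33. Ndufa9, which binds the arm that meets ubiquinone, was lower, at 3.28, 2.98 and 3.50 against 2.83, 2.68 and 2.83 (−0.47 ± 0.12, adjusted p = 0.00535). The dimmer probe of Ndufs6 differed by 0 at P7 (adjusted p = 0.991), so that rise rests on 1 probe. The other probes of Ndufc1 (0.18, adjusted p = 0.339) and Ndufb10 (0.07, adjusted p = 0.91) were not called either, and both genes lost the call when probes were averaged. Of 8 called members with a further tested probe, 2 were called the same way by another probe and 1 the opposite way.

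Uqcr11 of complex III was higher by 0.32 ± 0.10 (limma adjusted p = 0.023), and complex II again gave no call. In complex V Atp5j2 scored 4.11, 4.21 and 4.13 in wild type and 4.84, 4.69 and 4.30 in the knockout (0.46 ± 0.12, adjusted p = 0.00791). Atp5o was lower by −0.31 ± 0.09 (adjusted p = 0.0192). Atp5a1, the alpha subunit of the catalytic head, was lower by −0.29 ± 0.10 (adjusted p = 0.0317), while its dimmer probe was higher by 0.40 (adjusted p = 0.011), so its direction is unsettled. Of the assembly factors Ndufaf4 was lower as at P0, at 2.56, 2.88 and 2.78 against 1.59, 1.72 and 1.43 (−1.16 ± 0.11, adjusted p = 2.18e-06), again by its brighter probe only (0.25, adjusted p = 0.249, by the other).

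In complex IV the muscle-type isoforms Cox8b and Cox7a1, which are also abundant in brown fat, were higher at P7. Cox8b scored −0.62, −0.53 and −0.47 in wild type and −0.03, 0.02 and −0.27 in the knockout. Its probe was above background on the 3 knockout P7 arrays and on no other array, which gives a difference of at least 0.33. The gene entered the test through that group alone, so its call is not independent of the filter. Cox7a1 scored 0.12, 0.08 and 0.18 in wild type and 0.75, 0.54 and 0.42 in the knockout (0.44 ± 0.12, adjusted p = 0.0125). Cox5a was lower by −0.37 ± 0.11 (adjusted p = 0.0144). Cox4i2 differed by −0.19 (adjusted p = 0.0519) and was above background on all 3 wild-type and no knockout P7 array.

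Of 3 brown fat markers tested, 2 were also higher in the knockout at P7. Both, Ucp1 and Dio2, passed the filter only through the knockout P7 arrays, so their calls are not independent of it. Between the ages in wild type Cox7a1 was lower by −0.83. Ucp1 was above background on no wild-type array, so its value there (−0.07, not called) could not show a change. Ucp1, the uncoupling protein that defines brown adipocytes, scored −0.60, −0.58 and −0.53 in wild type at P7 and 0.48, 0.79 and 0.72 in the knockout (1.23, at least 1.08, limma adjusted p = 6.55e-06). Dio2 was higher by 0.27 (at least 0.09) and Cpt1b was not called, while Cidea and Elovl3 were not above background often enough to be tested. The summed score of the 5 markers, each by its brightest probe whether tested or not, ran from −2.75 to −2.62 on wild-type P7 arrays. On knockout P7 arrays it ran from −1.46 to −0.91, and 1 and 2 of the 5 were above background. The tested probes of Ucp1, Cpt1b and Dio2 were above background on all 3 knockout P7 arrays. At least 1 of these genes thus entered the sum by a brighter probe that was not tested. Of 13 regulators of mitochondrial biogenesis, a list apart from the brown fat markers, 2 were higher and 4 lower at P7. The higher ones were the coactivator Ppargc1a and the nuclear receptor Esrra (0.50). Ppargc1a scored −0.27, −0.19 and −0.17 against 0.61, 0.49 and 0.52 (0.75, adjusted p = 3.42e-05). Of 4 striated muscle markers tested, Tnnt3 was higher (0.30, at least 0.21) and Actn3 lower (−0.49), and the summed score of the 7 such markers on the array ran from −2.49 to −2.33 in wild type and from −2.34 to −2.29 in the knockout. Of the adrenal cortex markers Star was higher by 0.24 (at least 0.13, adjusted p = 0.00744) and Cyp11b2 stood at 0.06 (adjusted p = 0.551), and the 4 on the array summed to between −2.48 and −2.09 in wild type and between −1.93 and −1.77 in the knockout. The part of these cells in the P7 differences was not tested. Tnnt3 and Star, like Ucp1 and Dio2, passed the filter only through the knockout P7 arrays.

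For all 10 members higher at P7 the third knockout array was the lowest of its group. Of the called brown fat markers Ucp1 was lowest on the first and Dio2 on the third. Without the first knockout P7 array 3 members were higher, without the second 6, and without the third 11, and the lower members fell from 5 to 3 without the second or the third. The groups did not overlap for any of the 10, but these were picked by their call on the same arrays. Over all genes tested 30.2% lay wholly above wild type at P7. The count of higher members rose to 22 on the deposited scores and to 63 under median scaling, where the median of all genes stood at 0.35. The members' median then stood 0.93 above it, and all 5 lower calls turned positive, as Cox5a and Atp5o also did on the deposited scores. Of the genes called at P7 over the whole array 53.4% were higher here, 43.2% on the deposited scores and 87.5% under median scaling. Cox7a1 was called under each setting that gave a value, but not without the first knockout P7 array (adjusted p = 0.0768).

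**Figure D4:**
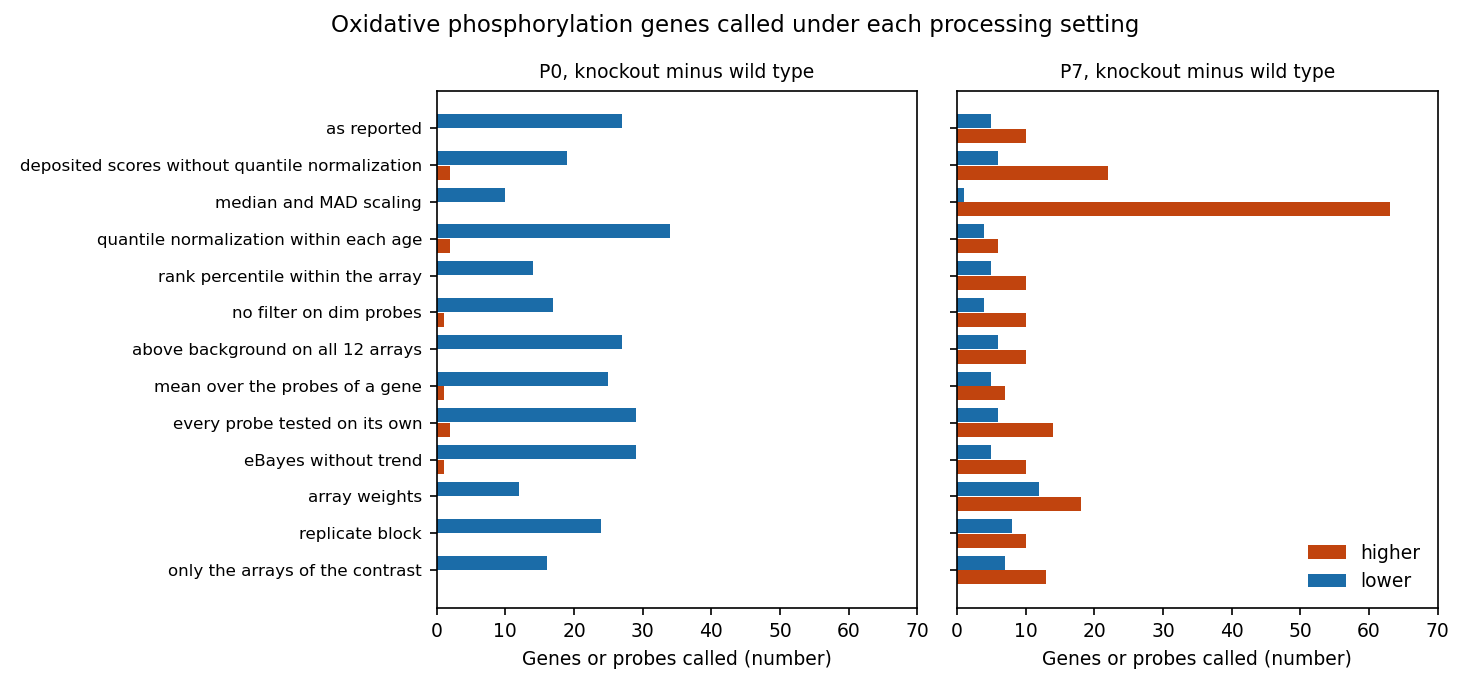
Number of oxidative phosphorylation genes (probes, where every probe was tested) called higher (orange) or lower (blue) under each processing setting, at P0 (left) and P7 (right). Lower genes outnumber higher ones at P0 under all 13 settings, from 10 to 34 lower, while the P7 balance runs from 4 lower and 6 higher to 1 lower and 63 higher.

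Whether the effect of genotype differed between the ages was tested directly by the interaction. In 21 of 80 members knockout minus wild type was higher at P7 than at P0, and in none was it lower. Over all genes 7.15% and 5.86% were called in these directions. The median was 0.26, against 0.02 over all genes. The 21 comprised 12 genes of complex I, 2 of complex III, 4 of complex IV and 3 of complex V, with no gene of complex II and no assembly factor. Within complex I they were 8 of 18 genes of the membrane arm and 4 of 14 of the peripheral arm.

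The called genes took several courses. Ndufc1 (0.89 ± 0.16, limma adjusted p = 0.00244), Atp5j2 (0.83 ± 0.17, adjusted p = 0.00541), Ndufs6 (0.77 ± 0.14, adjusted p = 0.00324), Ndufb10 (0.65) and Uqcr11 (0.62) were called lower at P0 and higher at P7. For Ndufb10 and Uqcr11 the P0 side is weak: their calls there were kept in 2 and 3 of 12 fits with an array left out, and the other probe of Ndufb10 stood at 0.44 at P0 (adjusted p = 0.399) and −0.37 in the interaction (adjusted p = 0.66). The P0 calls of Atp5j2 and Ndufs6 and the P7 calls of Ndufc1, Ndufb10 and Uqcr11 were each kept in 8 of 12 fits with an array left out. The remaining P0 and P7 calls of these genes were kept in 11 or 12. Cox8c (1.42 ± 0.19, adjusted p = 0.000336, with the knockout at P0 not above background), Ndufc2 (0.57) and Ndufs8 (0.55) were lower at P0 and not called at P7, and for Ndufs8 the P7 groups had the same mean of 2.76. Cox7a1 (0.70 ± 0.18, adjusted p = 0.0183) and Ndufa3 (0.67) were higher at P7 and not called at P0. Cox8b is counted among the 21, but its probe was above background in the knockout at P7 alone, so no size of its interaction is measured. Ndufaf4 (−0.22, adjusted p = 0.387), Cox5a (0.24, adjusted p = 0.305) and Atp5o (0.11, adjusted p = 0.629), the 3 members lower at both ages, gave no interaction call. Without the first knockout P7 array 11 members were called, and without the second 13. Of interaction calls over the whole array 54.9% were higher here and 93.8% under median scaling.

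**Figure D5:**
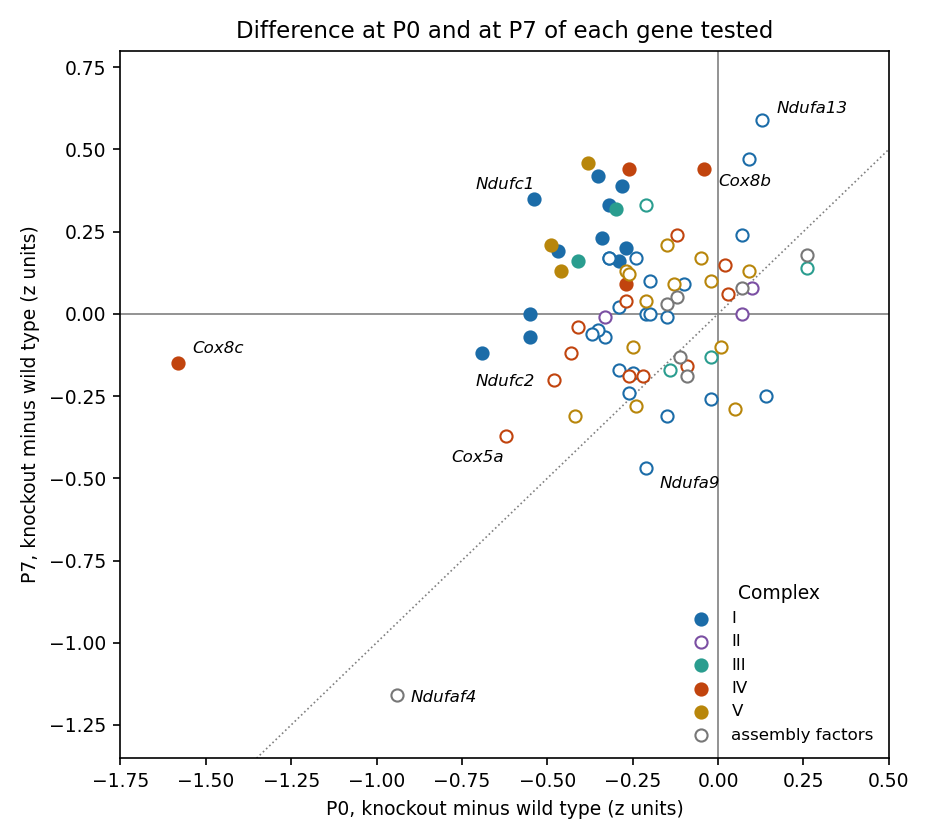
Knockout minus wild type at P0 (horizontal axis) against P7 (vertical axis) in z units for each of the 80 genes tested, coloured by complex. Filled points are the 21 genes with an interaction call, all above the dotted line of equal differences, and Ndufaf4 is lowest at P7 with −0.94 at P0 and −1.16 at P7.

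In the wild-type ovary most of the members were lower at P7 than at P0. Of 80 members 42 were lower and 6 higher, where 24.8% of all genes were lower and 25.1% higher, and the median was −0.27 against 0.01. In the membrane arm of complex I 15 of 18 genes were lower, in its peripheral arm 5 of 14, in complex IV 8 of 15 and in complex V 9 of 16. Ndufc1 scored 3.85, 3.74 and 3.72 at P0 and 2.79, 2.72 and 2.71 at P7 (−1.03 ± 0.11, limma adjusted p = 6.28e-06). Cox8c differed by −1.15 ± 0.14 (adjusted p = 1.35e-05), Cox7a1 by −0.83 ± 0.12 (adjusted p = 9.07e-05), Ndufa7 by −0.81 ± 0.11 (adjusted p = 3.2e-05) and Cox6c by −0.75 ± 0.15 (adjusted p = 0.000704).

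The beta and gamma subunits of ATP synthase went the other way, with Atp5b higher by 0.40 ± 0.10 (limma adjusted p = 0.00351) and Atp5c1 by 0.29 ± 0.10 (adjusted p = 0.0232). Both turned to lower on the deposited scores and when each age was normalized alone. The ages differ in how their columns were deposited, so age and processing run cannot be told apart. Of the age calls over the whole array 50.2% were higher here, 68.9% on the deposited scores and 67.7% with each age normalized alone. Of the 27 members lower in the knockout at P0, 19 were also lower at P7 than at P0 in wild type, and both counts draw on the same wild-type P0 arrays.

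In the knockout ovary the members showed little common change between the ages. Of 80 genes 12 were higher and 10 lower at P7, where 27.9% and 21.6% of all genes were, with a median of −0.01 against 0.04. Ndufs8 was higher by 0.53 ± 0.09 (limma adjusted p = 0.000272). Cox6c (−0.72 ± 0.15), Atp5a1 (−0.66 ± 0.10) and Ndufb7 (−0.52 ± 0.10) were lower. Without the second knockout array of either age, or without the first of P7, 7 to 8 members were higher. Of the age calls over the whole array 56.3% were higher here, 69.1% on the deposited scores, 70.2% with each age normalized alone and 87.3% under median scaling. With each age normalized alone 44 members were lower, so the balance in the knockout depends on how the ages were set against each other.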

How the data were processed

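Total RNA of ovaries from 12 mice was hybridised to Illumina BeadChips. The submitters' processing notes name GenomeStudio 2011.1. The authors deposited scores, centred on 0 with unit SD within each array as tested on the values. No source used here gives the log step or the background correction. P0 columns carry more decimals than P7 columns. A further 48 columns match no single sample and were not used.

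Scores were quantile-normalized over 12 arrays. Background was the 95th percentile of 1528 olfactory, vomeronasal and trace amine receptor probes on each array, and probes above it on at least 3 arrays were kept. The brightest probe stood for a gene, symbols were updated through RefSeq (GRCm38.p6), and values of other probes come from a fit on all probes. Where 1 group was on no array above background, a bound ("at least") is given if the mean of the other group lay above that level; interactions carry no bound. The design had assumed log2 bead signals; the same limma 3.58.1 model (R 4.3.3, 4 groups, eBayes with trend, 8 residual degrees of freedom, Benjamini-Hochberg at 0.05) was fitted to the scores and tested on simulated data. An exact permutation test of 3 against 3 cannot go below 0.1.

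Members and lists were chosen with earlier results of these data known. Named are up to 3 called members per complex and direction, core subunits, isoform sets, members whose probes disagree and up to 3 genes per other list; further called members are named to account for each. Other scalings, filters, probe rules, array weights, a replicate block, single-age fits and each array left out were tried. The precision is limited by the number of arrays.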

Additional observations from a re-analysis of the deposited data

Results flagged for a closer look

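The difference between knockout and wild type changed from P0 to P7, by the interaction test in limma, in 21 members, each towards higher values in the knockout at P7. In complex I these were Ndufc1 (0.89), Ndufs6 (0.77), Ndufa3 (0.67), Ndufb9 (0.67), Ndufb10 (0.65), Ndufc2 (0.57), Ndufa11 (0.57), Ndufs8 (0.55), Ndufb6 (0.49), Ndufs7 (0.48), Ndufb3 (0.48) and Ndufa2 (0.45), in z units. In complex III they were Uqcr11 (0.62) and Uqcrc1 (0.57). In complex IV they were Cox8c (1.42), Cox7a1 (0.70), Cox8b (0.48) and Cox7b (0.36), and in complex V Atp5j2 (0.83), Atp5e (0.69) and Atp5l (0.58). The probe of Cox8b was above background in the knockout at P7 alone and that of Cox8c in every group but the knockout at P0. That of Cox7b was above it on no knockout P0 array either, so these 3 values are not exact sizes. The interaction call of Cox7b was kept in 3 of 12 fits with an array left out. Dixon's test was not run, since the groups hold 3 arrays.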

How the results depend on the processing

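The fall at P0 kept its direction under every setting tried, while its size in calls did not. The count of lower members at P0 (27) was 10 under median scaling, 14 on rank percentiles, 17 with no filter, 12 with array weights and 16 on the P0 arrays alone, and 12 to 31 with 1 array left out; higher members numbered 2 on the deposited scores, 2 with each age normalized alone, 2 with every probe tested, 1 each with no filter, probe means and eBayes without trend, and 0 to 1 with an array left out. At P7 (10 higher, 5 lower) the counts were 22 higher on the deposited scores, 63 higher and 1 lower under median scaling, 6 higher with each age normalized alone, and 18 higher and 12 lower with array weights; with 1 array left out 3 to 11 were higher and 3 to 6 lower. The interaction (21 higher) gave 71 under median scaling, 1 lower when every probe was tested, and 11 to 24 higher and 0 lower with an array left out. In wild type between the ages 2 were higher under median scaling and 3 on rank percentiles (6 as reported), with 4 to 7 higher and 33 to 43 lower when 1 array was left out. In the knockout 38 were lower on the deposited scores, 44 with each age normalized alone, 16 with every probe tested and 6 under median scaling, where 19 were higher, with 7 to 13 higher and 8 to 13 lower with an array left out. Same-numbered arrays deviated with r from −0.14 to 0.14, and 1 of 18 pairs was over 0.1. The labels do not say whether the numbers pair animals, and such low values of r cannot exclude a weak pairing. With the replicate block 24 members were lower at P0, 10 higher and 8 lower at P7, and 19 had an interaction.

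Signs turned as follows; the cause was not tested. Under median scaling the median of all genes stood at −0.10 at P0, 0.35 at P7, 0.53 in the interaction and 0.41 between ages in the knockout. This scaling gave P7 values of Atp5a1 0.35, Atp5b 2.25, Atp5o 1.63, Cox5a 1.33, Cox6a1 1.54, Cox7a2l 1.09, Ndufa4 1.58, Ndufa9 1.03, Ndufaf4 0.16, Ndufs3 0.97, Ndufv1 1.62, Sdhb 0.79 and Uqcrc2 1.40, and in the interaction Atp5b 1.82, Cox7a2l 1.45, Sdhc 1.40 and Uqcrc2 1.65. Between ages in wild type it gave Atp5b −3.47, Atp5c1 −1.95, Ndufab1 −1.92 and Ndufaf4 −0.42, and in the knockout Atp5b −1.65, Atp5c1 −0.26, Atp5j2 −0.66, Ndufa13 −0.75, Ndufaf1 0.07, Ndufaf8 0.35, Ndufb5 0.19 and Ndufb7 0.14. On the deposited scores P7 gave Atp5b 0.66, Atp5o 0.24 and Cox5a 0.09, wild type between ages Atp5b −1.91, Atp5c1 −0.75 and Ndufab1 −0.71, and the knockout Atp5b −1.94, Atp5c1 −0.60, Atp5j2 −0.99, Ndufa13 −1.08 and Ndufaf8 0.10. With each age normalized alone wild type gave Atp5b −1.89, Atp5c1 −0.65 and Ndufab1 −0.58, and the knockout Atp5b −1.94, Atp5c1 −0.69, Atp5j2 −1.06, Ndufa13 −1.13 and Ndufaf8 0.09. With probe means Ndufb10 at P0 stood at 0.06 and Atp5a1 at P7 at 0.05.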

Other observations

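Other probes of the members gave values of their own in the fit on all probes. Of the 4 probes of Ndufab1, the mitochondrial acyl carrier protein, the brightest differed by −0.02 at P0, while another that was above background on all 12 arrays differed by −0.66 (limma adjusted p = 0.00145) at P0 and −0.57 (adjusted p = 0.00193) at P7. A dim probe of Atp5pb, a stator subunit, was higher by 0.26 at P0 (adjusted p = 0.00842), where its brightest probe stood at −0.24 (adjusted p = 0.175). The dimmer probe of Ndufs6 was lower by −0.59 at P0 (adjusted p = 0.00158).

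Of 39 assembly factors outside the rule 6 (15.4%) were higher and 3 (7.69%) lower at P7, where 17.6% and 15.4% of all genes were, with Lyrm2 (0.66), Cox14 (0.41) and Cox19 (0.35) among the first, and Cox10 (−0.87), Cox18 (−0.64) and Sco1 (−0.31) the second. Cox10, which makes the heme of complex IV, was lower at both ages. Of 13 regulators of mitochondrial biogenesis 2 were higher and 4 lower at P7, the lower ones with Gabpb1 (−0.50), Pprc1 (−0.43) and Tfb1m (−0.41) in front. Cycs, cytochrome c, was lower at P7 by −0.31 (adjusted p = 0.0246), after 0.21 at P0.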
